A study of Homo sapiens with 6 samples.

Results

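The genes described are the cytosolic and mitochondrial alanine transaminases (GPT, whose protein is called GPT1, and GPT2), the aspartate transaminases (GOT1, GOT2), the malate dehydrogenases (MDH1, MDH2), the inner-membrane carriers of the malate-aspartate shuttle (SLC25A11, SLC25A12, SLC25A13) and glutamate dehydrogenase (GLUD1). They were chosen by name, as the enzymes and carriers that share alanine, glutamate, alpha-ketoglutarate and malate with GPT1, and all 10 symbols matched an Ensembl identifier among the 60664 of the deposited count table. There were 3 mRNA sequencing libraries of HCT8 cells, a colorectal cancer line, transfected with a GPT1 overexpression plasmid and labelled with the genotype GPT1 overexpression. A further 3 libraries, the controls, came from HCT8 cells transfected with a control plasmid and labelled WT. All cells were grown in DMEM with 10% fetal bovine serum. No source used here gives the time after transfection, the promoter of the plasmid, or whether the transfection was transient or stable. The series asked through which signalling pathway GPT1 acts in colorectal cancer.

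Transaminases move an amino group between an amino acid and a keto acid. The alanine transaminases interconvert alanine and alpha-ketoglutarate with pyruvate and glutamate, and the aspartate transaminases interconvert aspartate and alpha-ketoglutarate with oxaloacetate and glutamate. The malate-aspartate shuttle couples the aspartate transaminases with the malate dehydrogenases on both sides of the inner mitochondrial membrane and carries the reducing equivalents of cytosolic NADH into the matrix. Its carriers are the malate/alpha-ketoglutarate exchanger SLC25A11 and the calcium-regulated aspartate/glutamate exchangers SLC25A12 (aralar) and SLC25A13 (citrin). Glutamate dehydrogenase converts glutamate to alpha-ketoglutarate and ammonia in the matrix.

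GPT, close to absent in the control libraries, rose above the other 9 genes in the GPT1 libraries, and among these others SLC25A13 was the only one that passed the test, at 1.34 times the control level. The remaining 8 genes had log2 fold changes between -0.14 and 0.22. Thus 2 of 10 genes passed an adjusted p of 0.05 in edgeR's quasi-likelihood test (Benjamini-Hochberg over 17638 tested genes, the 10 among them), against 25.1% of all tested genes. Both were higher in GPT1 libraries, as were 10.5% of all tested genes, while 14.6% were lower. Without GPT, the gene of the plasmid, 1 of 9 genes passed, against the same 25.1%. Of all calls, 41.9% were higher in GPT1 libraries, and 57.5% were with a correction of each library for transcript length and GC content. The CPM values of the groups did not overlap for 4 of the 10, namely GPT, GPT2, GOT2 and SLC25A13, against 43.4% of all tested genes. All 4 were higher in GPT1 libraries, as were 21.2% of all tested genes. Without GPT the groups did not overlap for 3 of 9 genes. CPM are counts per 1000000 reads, here with TMM-scaled library sizes. Among the 9 genes other than GPT the median absolute log2 fold change was 0.10, and over all tested genes it was 0.27. The median signed log2 fold changes were 0.03 and -0.02.

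Total counts lay between 30370654 and 31513656 in the GPT1 libraries and between 21255655 and 32487217 in the control libraries, control replicate 3 being the shallowest. No source states that the replicates came from separate cultures, and the p-values therefore measure only how these samples vary, possibly for technical reasons. The labelled cell type was compared with marker genes, which by themselves do not establish the identity of the line. Of 14 colorectal and intestinal markers, KRT20, CDX1, CEACAM5, CEACAM6, MUC2 and GPA33 averaged less than 1 CPM in both groups, and CDX2 stood at 45.3 ± 3.56 CPM in GPT1 libraries and 41.7 ± 4.47 CPM in control libraries (SD, n = 3). KRT8 averaged 352 CPM in GPT1 libraries and 529 CPM in control libraries, and KRT18 171 and 261 CPM. EPCAM, CDH1 and KRT19 averaged 9.28, 12.5 and 11.4 CPM in GPT1 libraries and 24.9, 50.1 and 51.2 CPM in control libraries. VIL1 and LGALS4 averaged 3.17 and 0.814 CPM in GPT1 libraries and 12.3 and 3.91 CPM in control libraries. Genes less typical of this lineage were abundant, such as VIM at 1039.7 ± 4.68 CPM in GPT1 libraries and 1023 ± 14.6 CPM in control libraries, and IRS4 at 404 ± 36.0 CPM in GPT1 libraries and 813 ± 77.0 CPM in control libraries. Of the neural and kidney-line markers, IRS4 among them, NEFM averaged 104 CPM in GPT1 libraries and 293 CPM in control libraries. In the same order NEFL averaged 83.0 and 152 CPM, and GATA3 14.2 and 12.7 CPM. PAX2 averaged 5.14 and 5.65 CPM, MAP2 2.09 and 5.34 CPM, and PAX8 0.282 and 0.499 CPM. Summed CPM of the 14 epithelial markers ranged from 564 to 623 in GPT1 libraries and from 898 to 1023 in control libraries, with 7 of 8 tested members lower. Summed CPM of 7 neural and kidney-line markers ranged from 570.4 to 652 in GPT1 libraries and from 1191 to 1441 in control libraries, with 4 of 7 lower. These sums moved with the groups in all comparisons below, and their part in any of the results was not tested. Mesenchymal markers summed to 1077 to 1099.9 CPM in GPT1 libraries and 1062 to 1100.4 CPM in control libraries, with 2 of 4 tested members higher. Sums of GPT1 against control libraries stayed under 4 CPM for hepatocyte markers (0.857 to 1.19 against 2.95 to 3.95 CPM, with 1 of 2 tested members lower), muscle markers (1.46 to 2.21 against 1.41 to 2.02 CPM) and leukocyte markers (2.05 to 2.25 against 1.46 to 1.82 CPM), with ALB, TTR, MYH7, PTPRC and CD3E each under 1 CPM. In bulk samples a smaller number of cells of a type and less RNA per cell cannot be told apart.

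Levels of different genes were compared as CPM per kb of the longest GENCODE 29 transcript. In the GPT1 libraries GPT came first at 1776 ± 80.7 CPM per kb, ahead of MDH2 (195 ± 6.22), GOT2 (136 ± 5.98) and MDH1 (126 ± 2.34). GLUD1 (71.7 ± 1.73), SLC25A11 (69.1 ± 7.21) and GPT2 (66.8 ± 4.47) followed, with overlapping ranges over libraries for GLUD1 and SLC25A11 and for SLC25A11 and GPT2. GOT1 (37.9 ± 1.28), SLC25A13 (29.4 ± 2.54) and SLC25A12 (8.93 ± 0.42) came last. In the control libraries the order began with MDH2 (195 ± 19.6), MDH1 (138 ± 16.1) and GOT2 (122 ± 9.09), the last 2 with overlapping ranges. GLUD1 (72.4 ± 2.13) and SLC25A11 (71.5 ± 9.01) were next and overlapped too. GPT2 (57.5 ± 6.48), GOT1 (37.2 ± 2.94), SLC25A13 (22.0 ± 1.70) and SLC25A12 (8.36 ± 0.73) followed, and GPT was last at 0.152 ± 0.08 CPM per kb. Neighbours not named as overlapping were apart in their ranges. Scaled to the union of annotated exons instead, MDH1 took the seventh place in the GPT1 libraries and the fifth in the control libraries.

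**Figure D1:**
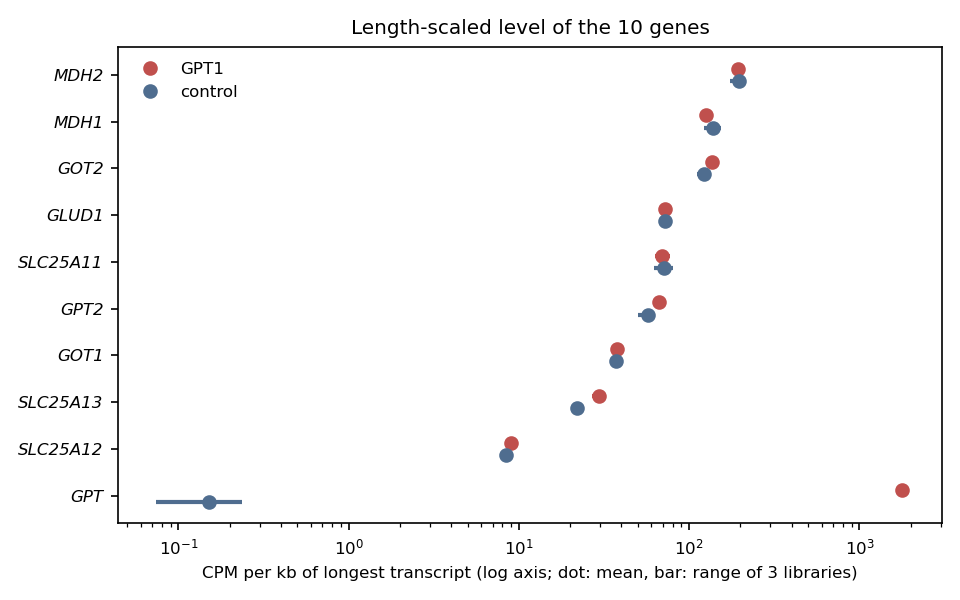
Length-scaled transcript levels (CPM per kb of the longest transcript, log axis) of the 10 genes, as the mean (dot) and range (bar) of the 3 GPT1 libraries and the 3 control libraries. GPT stands first at 1776 CPM per kb in GPT1 libraries and last at 0.152 CPM per kb in control libraries, while for each other gene the dots of both groups lie close together.

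GPT, the gene of the plasmid, matched the labels in every library. It encodes the cytosolic alanine transaminase (ENSG00000167701; protein-coding; plus strand of GRCh38 chromosome 8, 144502973 to 144507174) and had 3397, 3176 and 3468 CPM in the GPT1 libraries, against 0.275, 0.445 and 0.139 CPM in the control libraries. The control values rest on 9, 14 and 3 reads. Summed over libraries and scaled to their size, the counts gave a ratio of 11051 (exact 95% interval 7542 to 16918, counting error alone). In the edgeR fit the difference was 13.42 ± 0.19 on the log2 scale (SE, adjusted p = 1.22e-11). The counts do not separate plasmid transcripts from endogenous ones. ENSG00000255182, a processed transcript on the opposite strand that shares 207 exonic bases with GPT, stood at 19.7 ± 3.90 CPM in GPT1 libraries and 7.04 ± 0.69 CPM in control libraries. No source used here gives the strand setting of the counting, and reads in the shared bases cannot be told apart.

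GPT2 (ENSG00000166123, chromosome 16, 46884378 to 46931297, plus strand, protein-coding) encodes the mitochondrial enzyme. Its level was 298, 262 and 288 CPM in the GPT1 libraries, against 258, 259 and 211 CPM in the control libraries. The groups were apart by a narrow margin, between the lowest GPT1 library (261.6 CPM) and the highest control library (259.5 CPM). The log2 fold change of 0.22 ± 0.10 (95% interval 0.00 to 0.43) did not pass (adjusted p = 0.121, edgeR), although its unadjusted p was 0.0481. After each library was corrected for trends with transcript length and GC content, the value was 0.23 ± 0.06 and passed (adjusted p = 0.0156). GPT and GPT2 share 0 of the 1836 stretches of 50 bases in the longest GPT transcript, so identical sequence of that length does not link their counts. Per length, GPT made up 96.2%, 96.5% and 96.4% of the alanine transaminase transcripts in the GPT1 libraries, against 0.238%, 0.383% and 0.147% in the control libraries. The sum of both genes was 3695, 3438 and 3756 CPM in GPT1 libraries, against 259, 259.9 and 212 CPM in control libraries. Thus nearly all alanine transaminase transcripts encoded the cytosolic form in the GPT1 libraries and the mitochondrial form in the control libraries.

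**Figure D2:**
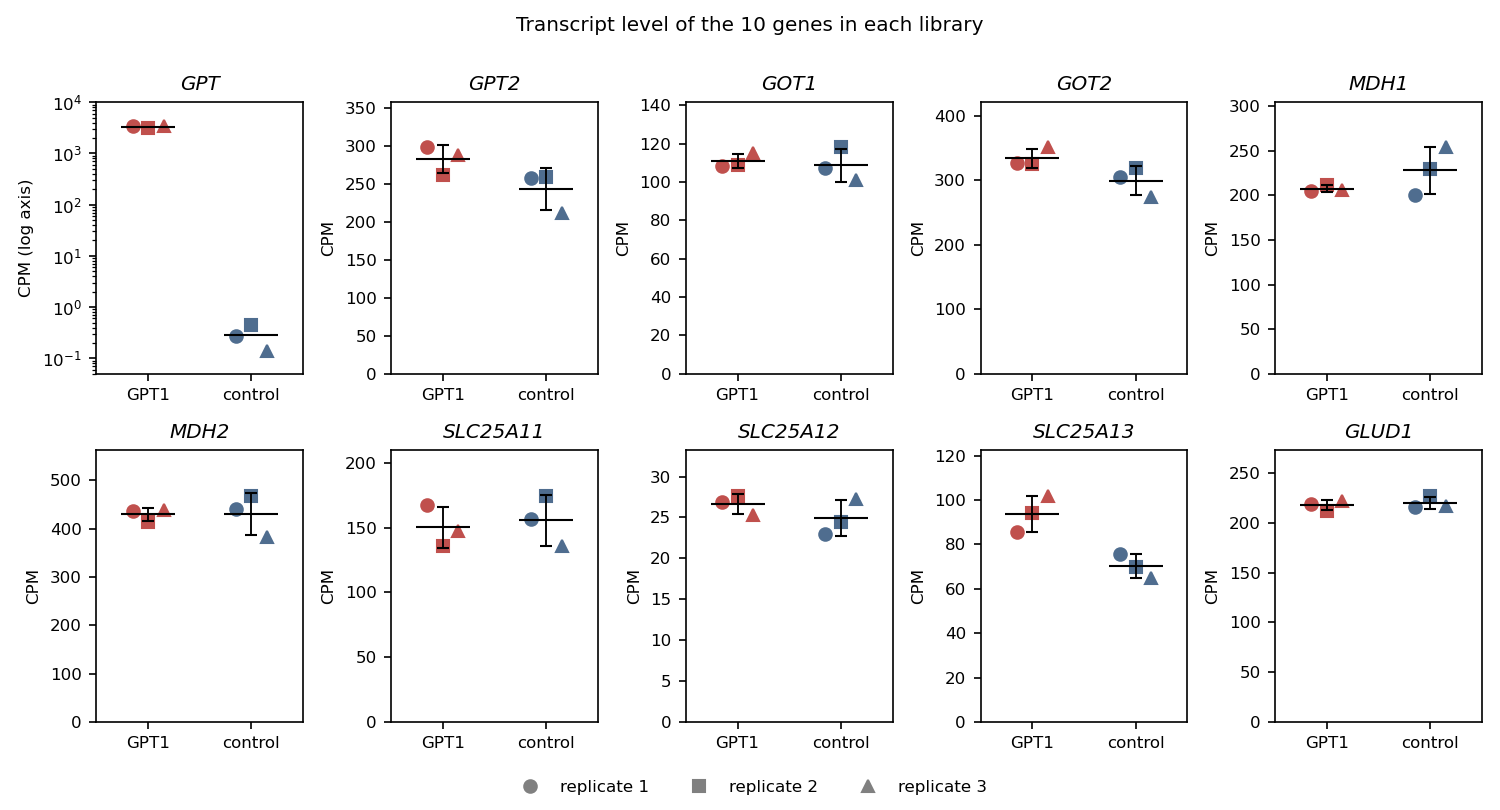
CPM of each of the 10 genes in every library, with GPT1 libraries on the left and control libraries on the right of each panel; symbols mark the replicate number, and black bars the mean ± SD (n = 3; mean only for GPT, whose panel has a log axis). SLC25A13 lies between 85.8 and 102 CPM in GPT1 libraries and between 64.8 and 75.7 CPM in control libraries, while most other panels show overlapping groups.

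The aspartate transaminases were abundant in both groups and neither passed the test. GOT1 (ENSG00000120053, chromosome 10, 99396870 to 99431569, minus strand), the cytosolic enzyme, had 108, 109 and 115 CPM in GPT1 libraries, against 107, 118 and 101 CPM in control libraries. The control values lay on both sides of those of GPT1. The log2 fold change was 0.03 ± 0.09, with a 95% interval of -0.16 to 0.22 (adjusted p = 0.843, edgeR). GOT2 (ENSG00000125166, chromosome 16, 58707131 to 58734357, minus strand), the mitochondrial enzyme, had 326, 325 and 351 CPM in GPT1 libraries, against 305, 318 and 275 CPM in control libraries. All GPT1 libraries lay above all control libraries, but the difference of 0.16 ± 0.08 (95% interval -0.03 to 0.34) did not pass (adjusted p = 0.18, edgeR). As a ratio of counts within each library, which needs no scaling, GOT1/GOT2 was 0.332, 0.336 and 0.328 in GPT1 libraries, against 0.352, 0.371 and 0.367 in control libraries. The ratio was lower in all 3 GPT1 libraries, by -0.13 on the log2 scale (exact two-sided permutation p = 0.1, the smallest that 3 against 3 libraries allow; 0.3 adjusted over 3 pairs).

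The malate dehydrogenases likewise did not pass. MDH1 (ENSG00000014641, chromosome 2, 63588609 to 63607197, plus strand), the cytosolic enzyme, had 205, 212 and 206 CPM in GPT1 libraries, against 201, 230.0 and 254 CPM in control libraries. The GPT1 libraries were close together, and the controls spread around them, replicate 3 being the highest. The log2 fold change was -0.14 ± 0.09 (95% interval -0.34 to 0.07, adjusted p = 0.292, edgeR). Without control replicate 3 it was -0.04, and after the length and GC correction it was -0.20 and passed narrowly (adjusted p = 0.0457). MDH2 (ENSG00000146701, chromosome 7, 76048051 to 76067508, plus strand), the mitochondrial enzyme of both the shuttle and the citric acid cycle, had 438, 414 and 438 CPM in GPT1 libraries, against 441, 469 and 384 CPM in control libraries. Its fold change was 0.997, with a 95% interval of 0.871 to 1.14 (adjusted p = 0.978, edgeR). The MDH1/MDH2 count ratio was 0.468, 0.512 and 0.470 in GPT1 libraries, against 0.456, 0.491 and 0.661 in control libraries, so that control replicate 3 alone stood apart. The log2 difference of -0.13 (exact two-sided permutation p = 0.7) turned to 0.03 without that library.

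**Figure D3:**
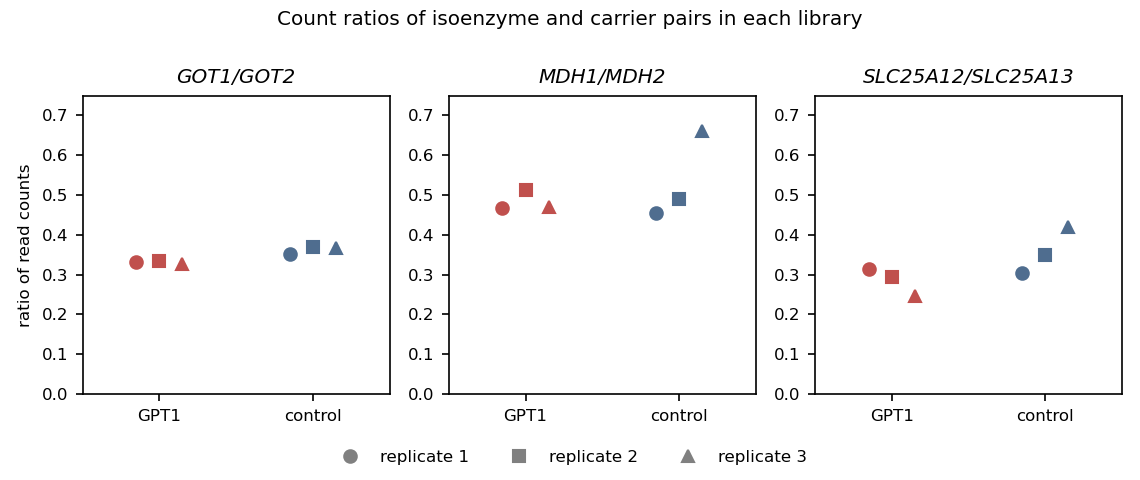
Ratio of read counts of cytosolic to mitochondrial aspartate transaminase (GOT1/GOT2), of cytosolic to mitochondrial malate dehydrogenase (MDH1/MDH2) and of the aspartate/glutamate carriers (SLC25A12/SLC25A13) in each library, GPT1 on the left and control on the right; symbols mark the replicate number. GOT1/GOT2 lies between 0.328 and 0.336 in GPT1 libraries, below the control range of 0.352 to 0.371, and the other pairs overlap.

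Of the shuttle carriers, SLC25A13 rose. SLC25A13 (ENSG00000004864, chromosome 7, 96120220 to 96322147, minus strand, protein-coding), the aspartate/glutamate carrier citrin, had 85.8, 94.0 and 102 CPM in GPT1 libraries, against 75.7, 69.9 and 64.8 CPM in control libraries. Every GPT1 library lay above every control library. The log2 fold change was 0.42 ± 0.10, a fold of 1.34 with a 95% interval of 1.15 to 1.55 (adjusted p = 0.0139, edgeR). The call ended without GPT1 replicate 3, the library with the highest SLC25A13 level (log2 fold change 0.36, adjusted p = 0.0823). In that fit 7.98% of all genes passed. The adjusted p ranged from 0.00133, with the length and GC correction, to that 0.0823 over 17 alternatives, 16 of which kept the call, and the log2 fold change from 0.36 to 0.49. Genes annotated within its span (MIR591 and 2 processed pseudogenes) had 0 reads.

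SLC25A12 (ENSG00000115840, chromosome 2, 171784370 to 171999859, minus strand, protein-coding), the paralogous carrier aralar, had 26.9, 27.7 and 25.2 CPM in GPT1 libraries, against 23.0, 24.4 and 27.3 CPM in control libraries. The groups overlapped, and the log2 fold change of 0.10 ± 0.11 did not pass (95% interval -0.15 to 0.34, adjusted p = 0.54, edgeR). The SLC25A12/SLC25A13 count ratio was 0.314, 0.294 and 0.247 in GPT1 libraries, against 0.304, 0.350 and 0.421 in control libraries. GPT1 replicate 1 lay within the control range, and the log2 difference was -0.32 (exact two-sided permutation p = 0.2; 0.3 adjusted over 3 pairs). With 3 libraries a group that test cannot give a p below 0.1, so the ratios do not show whether the 2 paralogs responded differently.

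SLC25A13 passed the test and its paralog SLC25A12 did not, which does not show that they responded differently. The windows before the start sites of the 2 genes are shown, and any link with their levels was not tested. They are the 250 bases before the RefSeq start (GRCh38.p14), both on the minus strand and written 5′ to 3′. Capitals mark an E-box (CACGTG) and a CCAAT box (CCAAT), the motifs found there on either strand, which did not overlap each other.
SLC25A13, chr7:96322099-96322348: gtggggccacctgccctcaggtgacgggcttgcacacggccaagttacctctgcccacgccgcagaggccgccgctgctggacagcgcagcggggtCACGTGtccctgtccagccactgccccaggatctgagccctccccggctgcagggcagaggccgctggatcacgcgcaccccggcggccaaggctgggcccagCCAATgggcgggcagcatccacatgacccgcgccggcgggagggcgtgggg
SLC25A12, chr2:171894245-171894494: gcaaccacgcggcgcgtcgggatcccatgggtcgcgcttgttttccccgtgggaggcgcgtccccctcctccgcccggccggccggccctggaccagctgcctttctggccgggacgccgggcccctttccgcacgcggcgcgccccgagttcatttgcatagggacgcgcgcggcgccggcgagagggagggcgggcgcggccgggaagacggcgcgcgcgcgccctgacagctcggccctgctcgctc

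In the SLC25A13 window the E-box began at position -154 and the CCAAT box at -51, counted back from the start site. The SLC25A12 window held neither, nor the C/EBP-ATF core (TGATGNAA), the CRE (TGACGTCA) or the NRF1 motif, all searched on both strands. GC content was 73.6% in the SLC25A13 window and 77.2% in the SLC25A12 window. Of 34788 promoter windows of this length, 6.31% held an E-box, 32% a CCAAT box, 3.16% a C/EBP-ATF core, 1.64% a CRE and 1.02% the NRF1 motif. Among the other genes with a RefSeq entry, GOT1 held 5 CCAAT boxes and a C/EBP-ATF core, and SLC25A11 a C/EBP-ATF core. MDH1 had 2 entries, with a CCAAT box in the window of entry 1 and none of the motifs in that of entry 2. GOT2, MDH2 and GLUD1 held none of the motifs. A match describes letters and does not show a bound site. GPT and GPT2 were not searched.

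SLC25A11 (ENSG00000108528, chromosome 17, 4937130 to 4940251, minus strand, protein-coding), the exchanger of malate and alpha-ketoglutarate, had 167, 136 and 148 CPM in GPT1 libraries, against 156, 175 and 136 CPM in control libraries. The groups overlapped over nearly their whole range. The log2 fold change was -0.05 ± 0.11 (95% interval -0.29 to 0.19, adjusted p = 0.763, edgeR). RNF167, on the opposite strand, shares 244 exonic bases with it and stood at 139 ± 5.85 CPM in GPT1 libraries and 126 ± 15.6 CPM in control libraries, which leaves reads in the shared bases uncertain. The other genes that share exonic bases with members on the opposite strand averaged at most 20.2 CPM, which was the control mean of SHLD2 beside GLUD1. METAP1D shares 181 exonic bases with SLC25A12 and stood at 15.4 ± 1.04 CPM in GPT1 libraries and 12.3 ± 0.91 CPM in control libraries.

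GLUD1 (ENSG00000148672, chromosome 10, 87050486 to 87094866, minus strand, protein-coding), the mitochondrial glutamate dehydrogenase, had similar levels in all libraries. Its values were 219.5, 212 and 222 CPM in GPT1 libraries, against 216, 228 and 217 CPM in control libraries. The groups overlapped, and the fold change was 0.990, with a 95% interval of 0.885 to 1.11 (adjusted p = 0.904, edgeR). GLUD1 shares 25.8% of the 50-base stretches of its longest transcript with GLUD2, an intronless copy on chromosome X, so reads there can be split between them. GLUD2 itself had 1.18 ± 0.11 CPM in GPT1 libraries and 0.961 ± 0.14 CPM in control libraries. The pseudogenes GLUD1P2 and GLUD1P3 averaged 0.749 and 2.57 CPM in GPT1 libraries and 0.504 and 2.30 CPM in control libraries. GOT2P2 averaged 0.185 CPM in GPT1 libraries and 0.232 CPM in control libraries, and MDH1B, a paralog of MDH1, 1.90 and 1.70 CPM. The other 10 listed copies, GOT1L1 among them, had 0 reads in all libraries. The copies named here are uncertain where reads are shared, and none of the 4 that were tested passed (edgeR; 0 of 4 at an unadjusted p under 0.05, and 0 by DESeq2).

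Among the 8 genes that did not pass, the 95% intervals reached from 0.789-fold (MDH1) to 1.35-fold (GPT2). A p above the threshold does not show that levels were equal. Control replicate 3 was the lowest control for 6 and the highest control for 2 of the 9 genes other than GPT. With the length and GC correction 4 of the 10 genes passed, GPT2 and MDH1 in addition to GPT and SLC25A13, in a fit in which 34.7% of all genes passed.

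**Figure D4:**
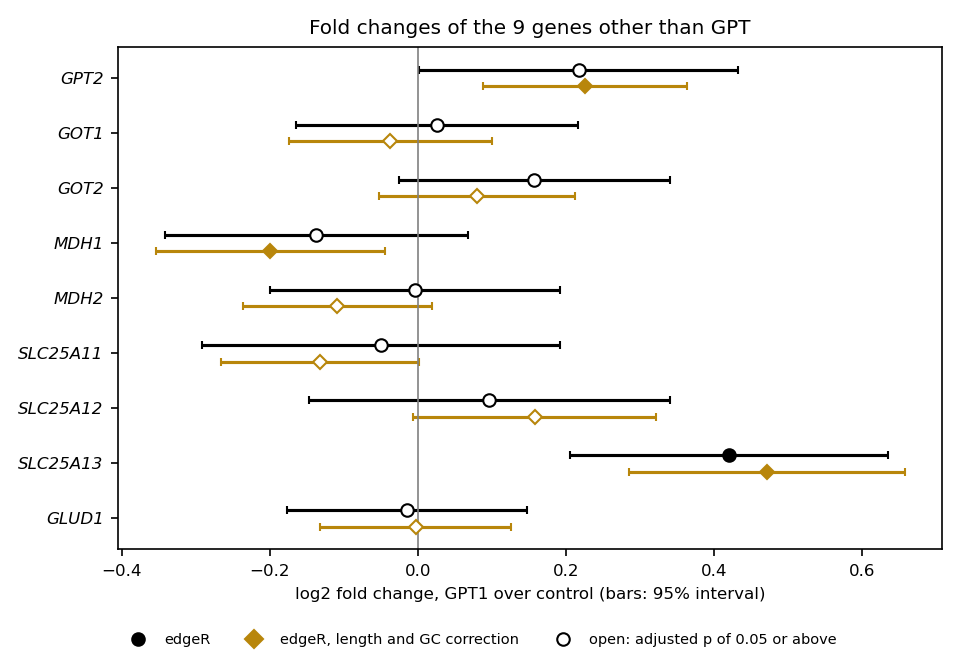
Log2 fold change of GPT1 over control for the 9 genes other than GPT, with 95% intervals, in the edgeR fit (circles) and after correction of each library for transcript length and GC content (diamonds); filled symbols have an adjusted p under 0.05. SLC25A13 is filled in both fits, and GPT2 (0.23) and MDH1 (-0.20) are filled after the correction.

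To place these genes among their metabolic neighbours, 5 lists of other genes of the same or nearby metabolites were examined. Of their 56 genes, 49 were tested. In all, 2 rose and 11 fell (26.5% of those tested, against 25.1% of all genes), with a median log2 fold change of -0.02, the same to 2 decimals as over all genes. In place of these 13, 4 passed without control replicate 1 (14.2% of all genes), 3 without GPT1 replicate 1 (8.80%), 2 without GPT1 replicate 3 (7.98%) and 8 in a fit blocked on replicate number (22.0%). With the length and GC correction 18 passed (34.7% of all genes), 7 higher and 11 lower. PCK1 and ASNS passed in all 17 alternatives, and each of the other 11 missed the threshold in at least 1.

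Other transaminases, with the lyases PHYKPL and ETNPPL counted among them, fell or did not pass. Of these 9 genes 4 were lower and 0 higher, with a median log2 fold change of -0.06. Of all tested genes 14.6% were lower and 10.5% higher. KYAT3, a kynurenine aminotransferase, fell to 29.4, 33.7 and 28.8 CPM in GPT1 libraries, against 38.8, 46.5 and 58.5 CPM in control libraries (log2 fold change -0.64 ± 0.14, adjusted p = 0.0125, edgeR). BCAT1, the cytosolic branched-chain amino acid transaminase, averaged 96.0 ± 13.6 CPM in GPT1 libraries and 144 ± 38.7 CPM in control libraries (-0.58 ± 0.17), a difference of -0.08 after the length and GC correction (adjusted p = 0.315). ABAT, the GABA transaminase (-0.37 ± 0.12), and PHYKPL, the phosphohydroxylysine lyase (-0.27 ± 0.08), fell by less. ABAT and PHYKPL missed the threshold by DESeq2 (adjusted p = 0.0597 and 0.0506). They also missed it in the edgeR fit blocked on replicate number (adjusted p = 0.101 and 0.0953), whereas KYAT3 and BCAT1 passed in both. Without GPT1 replicate 1 or GPT1 replicate 3 none of the 4 passed, with adjusted p up to 0.111 for BCAT1, 0.0609 for KYAT3, 0.142 for ABAT and 0.179 for PHYKPL. ABAT and PHYKPL also missed it without control replicate 1 (adjusted p = 0.189 and 0.0922, edgeR) or GPT1 replicate 2, and PHYKPL without control replicate 2. OAT, ornithine aminotransferase, averaged 118 ± 5.57 CPM in GPT1 libraries and 99.1 ± 8.04 CPM in control libraries and did not pass (0.25 ± 0.09, adjusted p = 0.0606), but did after the length and GC correction (0.34, adjusted p = 0.00156).

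Other mitochondrial carriers showed 0 calls among 7 tested genes by edgeR (25.1% of all genes), with 3 at an unadjusted p under 0.05. DESeq2 called 0 of them (25.5% of all genes), and the median log2 fold change was 0.18. The dicarboxylate carrier SLC25A10 averaged 9.11 ± 1.41 CPM in GPT1 libraries and 6.65 ± 1.09 CPM in control libraries (0.45 ± 0.16, adjusted p = 0.067). The pyruvate carrier subunits MPC1 (0.22 ± 0.10) and MPC2 (0.18 ± 0.08) had higher levels in all 3 GPT1 libraries than in any control library, without passing (adjusted p = 0.112 and 0.12). The glutamate carrier SLC25A22 (-0.16 ± 0.10) and the oxodicarboxylate carrier SLC25A21 (0.19 ± 0.22) overlapped between groups. With the length and GC correction SLC25A10 (0.36, adjusted p = 0.0299), MPC2 (0.25, adjusted p = 0.0388) and SLC25A22 (-0.19, adjusted p = 0.0404) passed.

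Among the enzymes of the glycerol phosphate shuttle, the malic enzymes and the lactate dehydrogenases, 3 of 8 fell and 0 rose (median log2 fold change -0.23). The shares over all tested genes were 14.6% lower and 10.5% higher. LDHA, the lactate dehydrogenase subunit that favours lactate, fell to 641, 631 and 673 CPM in GPT1 libraries, against 902, 689 and 824 CPM in control libraries (-0.31 ± 0.10, adjusted p = 0.0443, edgeR), while LDHB stood at 2.30 ± 0.72 CPM in GPT1 libraries and 1.72 ± 0.21 CPM in control libraries (0.43 ± 0.25, not passed). ME2, the mitochondrial malic enzyme, fell (-0.35 ± 0.10) but stood at 0.05 after the length and GC correction, and GPD1L, a glycerol-3-phosphate dehydrogenase-like enzyme, fell as well (-0.39 ± 0.12). GPD2, the mitochondrial enzyme of the glycerol phosphate shuttle, averaged 34.7 ± 6.86 CPM in GPT1 libraries and 49.4 ± 12.2 CPM in control libraries (-0.51 ± 0.18, adjusted p = 0.0585) and had -0.17 after the correction. GPD2 passed by DESeq2 (adjusted p = 0.025) and in the edgeR fit blocked on replicate number (adjusted p = 0.0395). Each of LDHA, ME2 and GPD1L missed the threshold without control replicate 1, control replicate 3, GPT1 replicate 1 or GPT1 replicate 3, with adjusted p up to 0.201, 0.112 and 0.148, and LDHA and GPD1L also without GPT1 replicate 2. In the blocked edgeR fit all 3 missed it (adjusted p = 0.0766, 0.0518 and 0.0631). By DESeq2 LDHA missed it (adjusted p = 0.054), while ME2 and GPD1L passed.

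Other enzymes of malate, oxaloacetate and alpha-ketoglutarate showed few calls, with 1 of 14 lower (14.6% of all tested genes) and 0 higher (10.5%). Their median log2 fold change was 0.01. PCK1, the cytosolic phosphoenolpyruvate carboxykinase that uses oxaloacetate, fell to 6.47, 6.10 and 6.15 CPM in GPT1 libraries, against 14.3, 11.5 and 20.9 CPM in control libraries (-1.31 ± 0.20, adjusted p = 0.00178, edgeR). FH, fumarate hydratase, which makes malate, averaged 96.3 ± 3.61 CPM in GPT1 libraries and 85.4 ± 3.22 CPM in control libraries and did not pass (0.17 ± 0.08, adjusted p = 0.135). The isocitrate dehydrogenase genes IDH2 (-0.20 ± 0.09) and IDH3B (0.24 ± 0.10) did not pass either. IDH2 did with the length and GC correction (-0.28, adjusted p = 0.00243) or without control replicate 3 (adjusted p = 0.0392), and IDH3B without control replicate 2 (0.33, adjusted p = 0.0311).

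Other enzymes around glutamate and aspartate moved in both directions, with 2 of 11 higher (10.5% of all tested genes) and 3 lower (14.6%). The median log2 fold change of the 11 was -0.08. The 2 that rose, ADSL and NIT2, do not themselves make or use glutamate or aspartate. ASNS, which makes asparagine from aspartate, fell to 3.32, 4.95 and 2.58 CPM in GPT1 libraries, against 7.92, 6.22 and 9.30 CPM in control libraries (-1.10 ± 0.23, adjusted p = 0.00898, edgeR). ASS1, which joins aspartate with citrulline, fell to 251, 234 and 246 CPM in GPT1 libraries, against 316, 333 and 287 CPM in control libraries (-0.36 ± 0.08, adjusted p = 0.014). GLS2, a mitochondrial glutaminase, fell (-0.49 ± 0.15), whereas ADSL, adenylosuccinate lyase, rose (0.45 ± 0.12), as did NIT2, an omega-amidase (0.32 ± 0.10, and 0.67 after the length and GC correction). ASS1, GLS2, ADSL and NIT2 missed the threshold without control replicate 1 or GPT1 replicate 3, with adjusted p up to 0.064, 0.0911, 0.0745 and 0.155. GLS2, ADSL and NIT2 also missed it without GPT1 replicate 1, GLS2 and NIT2 without control replicate 2, and GLS2 without GPT1 replicate 2 (adjusted p = 0.114, edgeR).

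**Figure D5:**
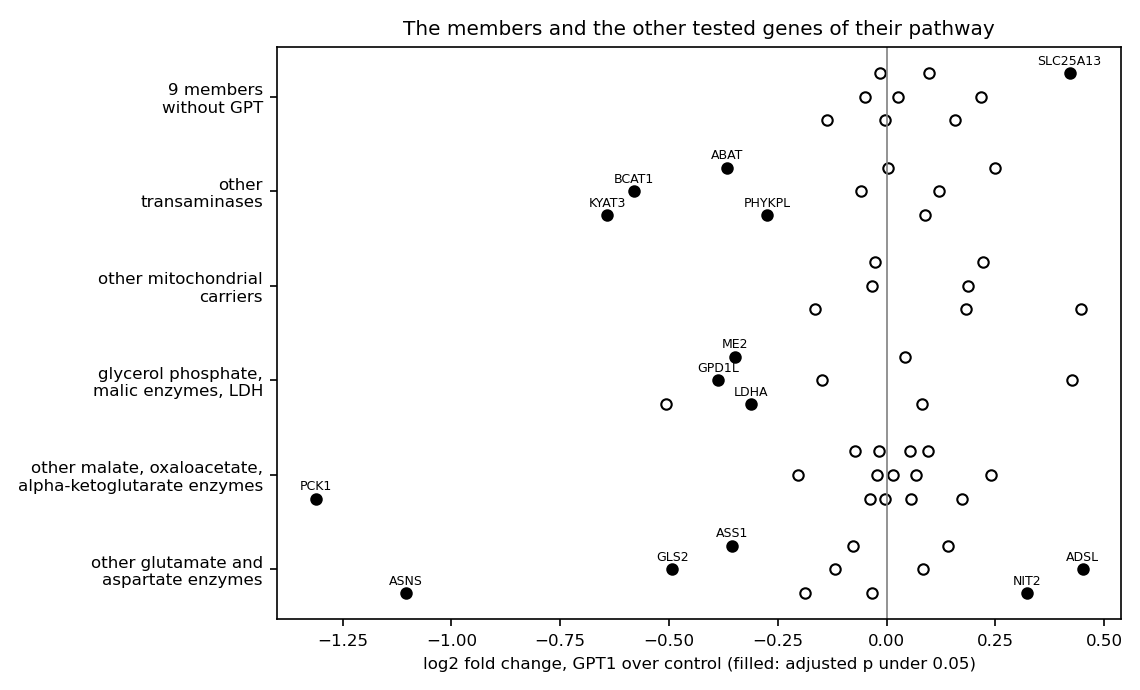
Log2 fold change of GPT1 over control for the 9 members without GPT and for the 49 tested genes of 5 lists of neighbouring enzymes and carriers, one point per gene; filled points have an adjusted p under 0.05 and are named. SLC25A13, ADSL and NIT2 lie to the right, PCK1 (-1.31) and ASNS (-1.10) farthest to the left, and the carriers show no filled point.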

How the data were processed

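The authors deposited whole-number read counts per Ensembl gene, with a column for each of the 6 libraries, matched to samples by title. Per the submitters' processing notes the aligner was HISAT2 2.0 and the genome GRCh38. No source used here names the counting tool, its annotation or its strand setting. Symbols came from a gene name table (60463 identifiers matched, 201 did not), coordinates and transcript lengths from GENCODE 29 (GRCh38), and promoter windows from RefSeq (GRCh38.p14).

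Counts were tested in R 4.3.3 with edgeR 4.0.16 (filterByExpr, 17638 genes; TMM; quasi-likelihood F test, two-sided; Benjamini-Hochberg; threshold 0.05). Each SE was the log2 fold change over the square root of its F, and 95% intervals used the t distribution with the fit's degrees of freedom. Members and lists were chosen with earlier results of these data known. Named genes were all members, up to 5 tested genes with the smallest adjusted p in each of 5 lists, copies of the members with counts, and cell type markers. Marker sums use total counts. Replicates differed by chi-square per degree of freedom of 9.98 to 30.8 and were treated as separate samples. Alternatives were other scalings and filters, DESeq2 1.42.0, limma 3.58.1 voom, a block for the replicate number, the omission of each library, and a smooth correction (mgcv 1.9.3) of each library for transcript length and GC content, with which fold changes correlated at Spearman -0.33 and 0.31 across 17436 genes. The correction also removes any group difference that follows length or GC content. The scripts were checked on simulated counts.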

Additional observations from a re-analysis of the deposited data

How the results depend on the processing

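Over 17 alternatives the log2 fold change of SLC25A13 lay between 0.36 and 0.49 and that of GPT2 between 0.14 and 0.29; that of GPT lay between 13.19 and 13.86 in the 16 that kept GPT. The number of members that passed was 2; it was 1 with GPT left out, since GPT was then not tested, 4 with the length and GC correction, and 1 to 2 when single libraries were left out. The number of other pathway genes that passed was 13, 2 of them higher and 11 lower; it was 18 with the length and GC correction, 7 higher and 11 lower, 15 with the replicate block added, and 2 to 12 when single libraries were left out. The number of all genes that passed was 4430, and 1443 to 4907 when single libraries were left out, with 2565 without control replicate 1, 1586 without GPT1 replicate 1 and 1443 without GPT1 replicate 3. With the length and GC correction 3519 genes were higher and 2605 lower, beside 1858 and 2572 without it. The cause of these differences was not tested. The deviations of same-numbered libraries from their group means correlated at 0.14, -0.28 and -0.08, and 1 of 6 libraries correlated best with its own number. With 3 libraries a group these values do not settle whether the replicate numbers pair the samples. With the replicate number as a block 3886 genes, 2 members and 8 other pathway genes passed. Left-out libraries moved the log2 difference of GOT1/GOT2 between -0.15 and -0.12, that of SLC25A12/SLC25A13 between -0.44 and -0.20 and that of MDH1/MDH2 between -0.24 and 0.030. In each group 6 of the 10 members kept their place in the order of levels when lengths came from the exon union, though not the same 6. GOT2 kept its place only in the GPT1 libraries and GPT2 only in the control libraries. Fold changes near 0 changed sign, none of them past the threshold in either fit except ME2. GOT1 had -0.037 with the length and GC correction, also with the replicate block, and -0.0090 to 0.088 when single libraries were left out. MDH2 had 0.0091 with DESeq2's size factors, 0.0092 with DESeq2, 0.034 with upper quartile factors, 0.0013 with a filter of 1 CPM in 3 libraries, 0.00048 with the replicate block, and -0.066 to 0.059 when single libraries were left out. SLC25A11 ranged from -0.13 to 0.041 and GLUD1 from -0.029 to 0.026 when single libraries were left out, and GLUD1 had 0.024 with upper quartile factors. ME2, which passed at -0.35, had 0.047 with the length and GC correction and 0.049 with the replicate block added, not passed. The 95% intervals give the precision that 3 libraries a group allow.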
